A study of Mus musculus with 4 samples.

Results

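The genes described here encode the plasma membrane and vesicular carriers of neurotransmitters and related amino acids. They were chosen by name alone, as every gene of the count table whose symbol belongs to solute carrier family 1, 6, 17, 18 or 32, and 38 of the 26301 genes of the table met this rule. Family 1 gave 7 genes, family 6 gave 19, family 17 gave 8, family 18 gave 3 and family 32 gave 1. RNA was sequenced from mouse embryonic stem cells (ESCs) to ask how transcript levels differ when REST, the repressor of neuronal genes, is lost. The wild-type (WT) cells were the ESC line N6 and the REST-deficient (Rest-/-) cells were the ESC line N8. Each line had 2 libraries, which the study describes as biological replicates. Each genotype was therefore 1 line, and genotype and line cannot be told apart. Both lines were grown with LIF and fetal bovine serum on irradiated mouse embryonic fibroblasts and were then passaged on gelatin to remove these feeders before RNA was taken.

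Many transmitters released at a synapse are cleared by sodium-coupled carriers of the plasma membrane. Family 1 holds the glutamate transporters and the neutral amino acid exchangers, and family 6 holds the carriers of GABA, glycine, monoamines, taurine, creatine and neutral amino acids. Inside the nerve terminal, families 17, 18 and 32 hold the carriers that load glutamate, monoamines, acetylcholine, GABA and glycine into vesicles, driven by the proton gradient that the vacuolar ATPase makes. Several of these genes have duties outside the nervous system, since dividing cells also need amino acids, taurine and creatine. REST recognises a DNA element called RE1, which lies near many genes of mature neurons.

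The members that carry an RE1 match close to a start site are printed first, because REST acts through this element. The motif searched was CAGNACCNNGGACAG on both strands of the mm9 genome, in which 12 of the 15 positions are fixed and N is any base. A full match lay within 20 kb of an annotated transcript start in 4 of the 36 members that had a position (11.1%), against 3.72% of the 22788 genes with a position, and within 1 kb in 2 of 36 (5.56%) against 0.592% of genes. The 4 full matches are given 5′ to 3′ on the strand of the match, with the 15-base match in capitals and 7 flanking bases on each side.
Slc17a6: agcatttCAGGACCACGGACAGaggaagc
Slc6a5: tgactttCAGTACCACGGACAGtacctaa
Slc1a2: aaggaccCAGAACCTAGGACAGgcttctg
Slc6a9: agtccgtCAGGACCACGGACAGcgcacgg

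The match in Slc17a6, the gene of the vesicular glutamate transporter VGLUT2, lay in an exon at chr7:58877234-58877248 on the minus strand, 41 bp from the start of the gene. That in Slc6a5, the gene of the neuronal glycine transporter GlyT2, lay in an intron at chr7:57165969-57165983 on the minus strand, 460 bp from the start. The match in Slc1a2, the gene of the main astrocytic glutamate transporter GLT-1, was intronic at chr2:102583468-102583482 on the plus strand and 8041 bp from the nearest transcript start. The match nearest Slc6a9, which encodes the glycine transporter GlyT1, lay beyond the gene's 3′ end at chr4:117566180-117566194 on the minus strand, 19500 bp from the start of a short transcript at that end. With 1 mismatch allowed, a match lay within 1 kb of a start in 5 of 36 members (13.9%), against 5.29% of genes. The 3 members this added are shown with the base that departs from the motif, counted from 1 at the first C of the motif.
Slc6a2: atagaggCAGGACCTTGAACAGtagtagg
Slc6a19: ttcctttCAGAATCTAGGACAGttcagga
Slc6a9: ctctctcCAGGACCTGGAACAGagcctgg

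The departures were G11A in Slc6a2, C6T in Slc6a19 and G11A in Slc6a9, at chr8:95485609-95485623, chr13:73841620-73841634 and chr4:117522983-117522997, all intronic and on the plus strand. Within 20 kb, a match with at most 1 mismatch was found near 17 of 36 members (47.2%) and near 39.2% of all genes. A match is a description of the sequence, and binding of REST at these sites is not reported here.

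The libraries held 30953863 and 27061056 assigned counts for WT, against 25461270 and 22293966 for Rest-/-. Rest itself had 7908 and 6233 counts in the WT libraries, against 4244 and 3890 in Rest-/-, so transcripts of the gene were still counted in the knockout line, at 244 ± 16.1 against 170 ± 8.03 CPM (counts divided by the scaled library total; mean ± SD, n = 2 each). The pluripotency markers summed to 5234 and 5022 CPM in WT and to 4457 and 4528 CPM in Rest-/- libraries, with Zfp42 at 21811 and 14492 against 6669 and 5014 counts (log2 fold change -1.36 ± 0.18, adjusted p of 0.179 in the quasi-likelihood test and 1.7e-05 in the edgeR exact test with tag-wise dispersion). The median of the 12 was -0.098, and 5 of them had a positive log2 fold change. Of 12 fibroblast markers, 9 passed the filter on low counts, with a median log2 fold change of 1.58. They summed to 49.0 and 27.1 CPM in WT, and to 162 and 27.9 CPM in Rest-/- libraries 1 and 2, so Rest-/- library 1 stood apart, while Lum was at 0 in all 4. Of the 8 fibroblast markers with a positive log2 fold change, 6 turned negative when 1 library was left out. Neuronal markers (12, of which 11 were tested) summed to 449 and 542 CPM in WT and to 633 and 703 CPM in Rest-/-. Of the 11, 10 had a positive log2 fold change, and the median over the 11 was 1.18. Primitive endoderm markers (12 tested, median log2 fold change 0.79) summed to 162 and 294 CPM in WT against 365 and 459 CPM in Rest-/-. This sum was led by Col4a1, Lama1 and Col4a2 (WT means of 88.4, 71.3 and 44.0 CPM). Of the 12, 11 had a positive log2 fold change, while Hnf4a had 115 and 128 counts in WT against 19 and 17 in Rest-/-. Of 12 markers of glia and neural progenitors, 9 were tested, with a median of -0.15. Among these 9, 4 had a positive log2 fold change, and Olig2 had 158 and 172 counts in WT against 1 and 0 in Rest-/-. In a bulk sample, fewer cells of a type and less RNA per cell cannot be told apart.

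A few carriers held most of the reads of these families. The 4 highest members, Slc6a6, Slc6a8, Slc1a5 and Slc1a4, took between 83.5% and 88.7% of all member counts in each library. In the genotype where they were higher, 16 members averaged 1 CPM or more and 3 averaged 100 CPM or more. At the other end, 10 members never exceeded 3 counts in any library and 3 of these were at 0 throughout. The filter on low counts kept 22 members (57.9%), against 58.7% of all genes. Per kilobase of exon, the WT order began with Slc6a6 at 45.2 ± 0.285, Slc6a8 at 34.7 ± 12.3 and Slc1a5 at 32.5 ± 0.746 RPKM (SD, n = 2). The ranges of Slc6a8 and Slc1a5 overlapped. This order depended on the length used: per kilobase of the longest transcript, the means were 48.2 for Slc1a5, 45.6 for Slc6a8 and 45.2 for Slc6a6. Slc1a4 followed at 9.67 ± 4.81 and Slc6a15 at 4.53 ± 0.753 RPKM.

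**Figure D1:**
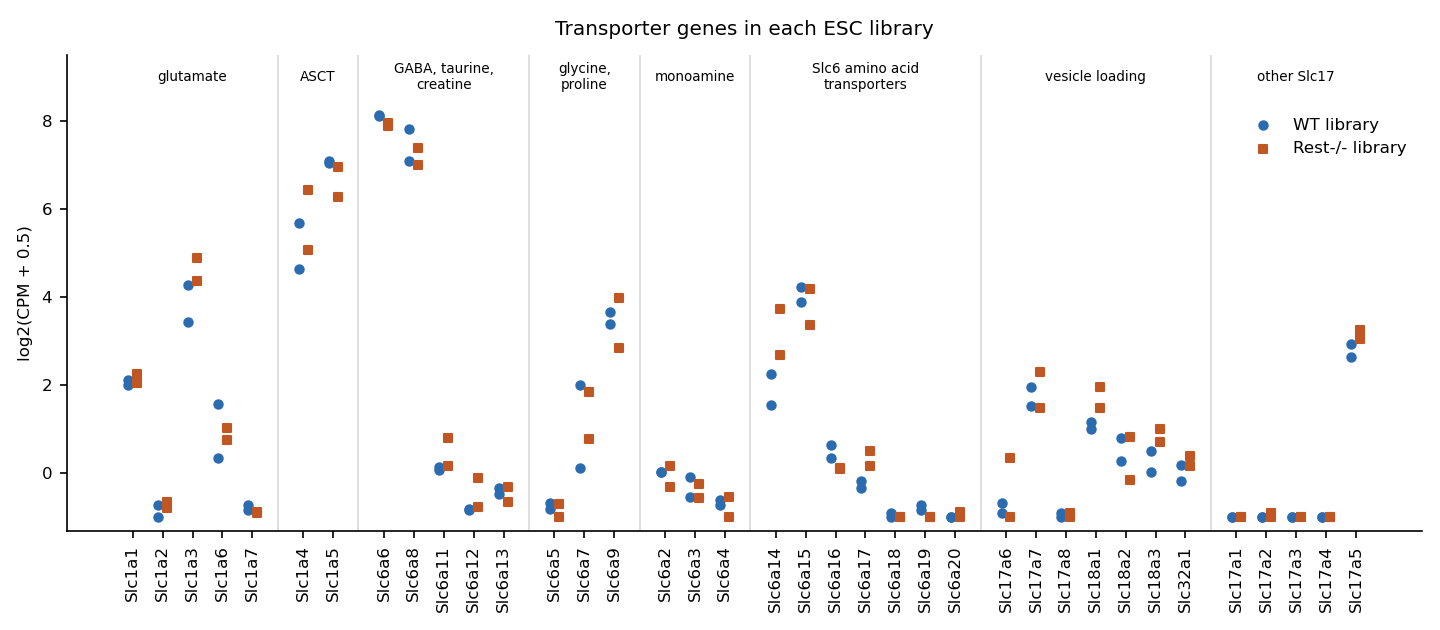
37 of the 38 members are on the x axis, grouped by role, and the y axis gives log2(CPM + 0.5). Circles are the 2 WT and squares the 2 Rest-/- libraries, and members with no counts lie at -1. Slc6a6, Slc6a8 and Slc1a5 stand above the others in all 4 libraries.

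No member passed the test between genotypes (edgeR quasi-likelihood test, adjusted p under 0.05 over 15444 genes), in a table in which 9 genes (0.0583%) did. 1 of the 22 tested members, Slc6a14, had an unadjusted p under 0.05, as did 1036 of all genes tested (6.71%). The edgeR exact test with a common dispersion called 247 genes (1.6%) higher in Rest-/- ESCs, of which Slc6a14 was the only member, and no member was called by the exact test with tag-wise dispersion or by DESeq2. The Rest-/- libraries lay both above the WT libraries for 7 of the 22 members, where 16.5% of all genes tested did, and below them for 3, where 15.4% did. A gene of low count can pass the filter through 1 genotype alone, so these counts of members are a description. The median log2 fold change was 0.07 over the members and -0.0047 over all genes tested, and that of the members was 0.197 to 0.311 with any 1 library left out. The median SE was 0.465 for the members and 0.282 for all genes, and their median WT level was 3.12 against 20.7 CPM, so smaller changes were harder to detect in these families.

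**Figure D2:**
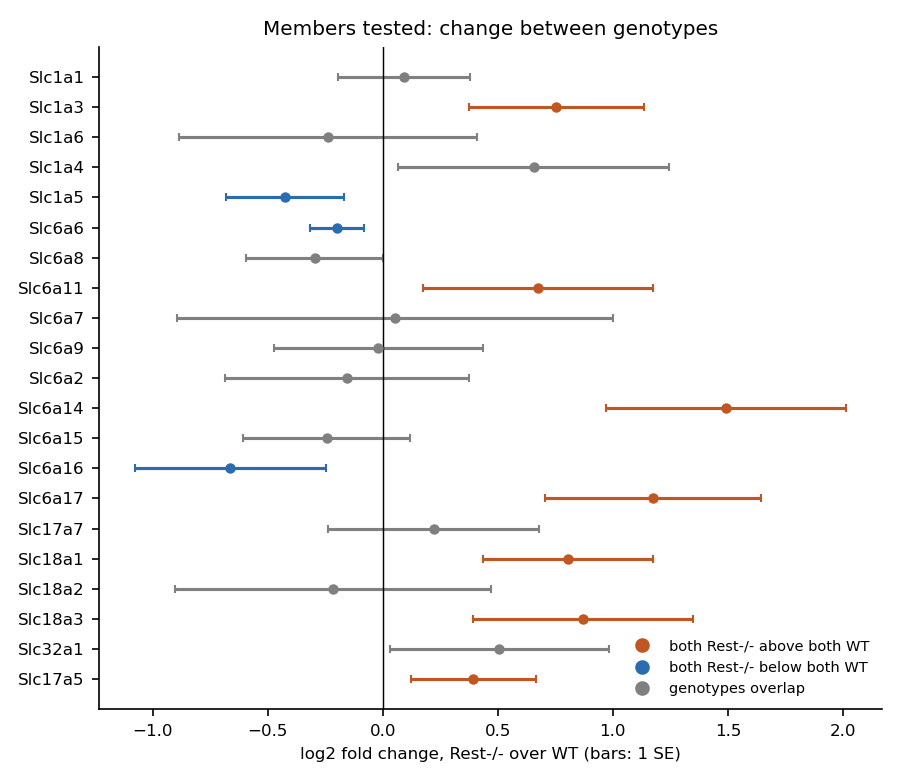
Points give the log2 fold change (Rest-/- over WT) of 21 of the 22 members tested and bars 1 SE. Colours mark whether both Rest-/- libraries lay above both WT libraries (7), below both (3) or neither (11). Slc6a14 lies farthest to the right, at 1.49.

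Among the glutamate transporters, Slc1a3, the gene of the astroglial carrier GLAST, had the highest level per length (1.72 ± 0.707 RPKM in WT, or a mean of 3.31 with the longest transcript as length). Slc1a3 had 323 and 508 counts in the WT libraries, against 526 and 647 in Rest-/-, or 14.7 ± 6.03 against 24.8 ± 6.26 CPM (SD, n = 2). The genotypes did not overlap, but WT library 2 and Rest-/- library 1 were close (19.0 and 20.4 CPM), and the log2 fold change of 0.75 ± 0.38 (SE) had an adjusted p of 0.911 in the quasi-likelihood test. It was 0.38 without WT library 1 and 1.25 without WT library 2. Slc1a1, which encodes the widely expressed carrier EAAT3, had 120 and 95 counts in the WT libraries, against 110 and 81 in Rest-/-, with overlapping genotypes and a log2 fold change of 0.09 ± 0.29. Slc1a6, the gene of the Purkinje cell carrier EAAT4, had 24 and 66 counts in the WT libraries, against 31 and 34 in Rest-/-, so that the WT libraries differed more from each other than from the knockout. Slc1a2, with its full RE1 match in an intron, had 0 and 3 counts in the WT libraries, against 2 and 3 in Rest-/-. Slc1a7, which encodes the retinal carrier EAAT5, had 2 and 3 against 1 and 1. Neither gene was measurable in either genotype.

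The neutral amino acid exchangers stood far above these per length, as the RPKM values given above show. Slc1a5 encodes ASCT2, through which growing cells take up glutamine, and had 4119 and 3681 counts in the WT libraries, against 2002 and 2750 in Rest-/- (135 ± 3.10 and 101 ± 33.0 CPM). ASCT2 transcripts were lower in both Rest-/- libraries, in library 1 by much more than in library 2, and the log2 fold change of -0.42 ± 0.26 had an adjusted p of 0.993. It was -0.12 without Rest-/- library 1 and -0.81 without Rest-/- library 2.

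Slc1a4 encodes ASCT1, the carrier of serine and alanine, and had 762 and 1374 counts in the WT libraries, against 856 and 1916 in Rest-/-. The genotypes overlapped, and the second library was the higher one in both (24.6 and 51.3 CPM in WT, 33.1 and 86.5 CPM in Rest-/-). Genes of the amino acid response, a programme that the factor ATF4 drives and to which Slc1a4 belongs, summed to 1905 and 2911 CPM in WT and to 1917 and 3958 CPM in Rest-/- libraries. Their order over the libraries was that of Slc1a4, with Rest-/- library 2 highest and WT library 1 lowest. Rest-/- library 1 was nearly level with WT library 1 in the sum of the list. Whether Slc1a4 followed these genes was not tested, and its own log2 fold change was 0.66 ± 0.59. Of the 20 genes of this list, all were tested, none passed, and 17 had a positive log2 fold change (median 0.23), as had 49.2% of all genes tested. Of these 17, 14 turned negative when 1 of the libraries was left out. The genotypes were apart, with Rest-/- higher, for 2 of them (16.5% of all genes tested were so), the stress factor gene Atf3 (128 and 187 against 287 and 326 counts) and Cth (3060 and 2279 against 2955 and 3645 counts), whose enzyme makes cysteine.

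The GABA transporter group was led by 2 carriers that are not specific to neurons. Slc6a6, the taurine transporter, had 8680 and 7443 counts in the WT libraries, against 6425 and 5258 in Rest-/-, or 279 ± 1.76 against 243 ± 7.99 CPM. The genotypes were apart and the spread within each genotype was small, with a log2 fold change of -0.20 ± 0.12 and an adjusted p of 0.987. Slc6a8, the creatine transporter, had 6997 and 3636 counts in the WT libraries, against 4309 and 2833 in Rest-/-. The genotypes overlapped for Slc6a8, because WT library 1 was far above WT library 2 (226 and 136 CPM), and the log2 fold change was -0.30 ± 0.30. Slc6a8 lies on the X chromosome, where 466 of 550 genes tested had a negative log2 fold change and the median was -0.41.

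Slc6a11, which encodes the GABA carrier GAT3, had 19 and 15 counts in the WT libraries, against 32 and 14 in Rest-/-, with a log2 fold change of 0.67 ± 0.50 that was 0.11 without Rest-/- library 1. Slc6a12, which encodes the betaine and GABA carrier BGT1, had 2 and 2 against 11 and 2 counts, and Slc6a13 (GAT2) had 9 and 6 against 8 and 3. All but 2 of the Slc6a12 counts in Rest-/- ESCs came from library 1, the library with the highest fibroblast marker sum. The part of such cells in these values was not tested.

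The carriers of glycine and proline showed no separation of the genotypes. Slc6a9 had 312 and 327 counts in the WT libraries, against 173 and 339 in Rest-/- (10.1 and 12.2 CPM against 6.70 and 15.3 CPM), and its log2 fold change was -0.02 ± 0.46. The 2 Rest-/- libraries lay on either side of WT. The exons of Slc6a9 share 27.8% of their bases with Ccdc24 on the opposite strand, and whether the authors counted by strand is not given in the sources used here. Slc6a7, the brain proline transporter, had 110 and 16 counts in the WT libraries, against 80 and 27 in Rest-/-, so that the libraries of one genotype differed far more than the genotypes did. Slc6a5, whose full RE1 match is printed above, had 4 and 2 counts in the WT libraries, against 3 and 0 in Rest-/-.

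The plasma membrane carriers of monoamines had at most 16 counts in any library. Slc6a2 (noradrenaline) had 16 and 14 counts in the WT libraries, against 8 and 14 in Rest-/-, with a log2 fold change of -0.15 ± 0.53. Slc6a3 (dopamine) had 6 and 12 against 9 and 4 counts, and Slc6a4 (serotonin) had 5 and 3 against 5 and 0. A count of 3 equals 0.0969 to 0.135 CPM in these libraries, so differences below that level were not detectable.

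Of the members tested, the largest log2 fold change was that of Slc6a14, which encodes ATB0,+, a carrier of neutral and cationic amino acids found in epithelia. Slc6a14 had 132 and 65 counts in the WT libraries, against 332 and 133 in Rest-/-, or 3.35 ± 1.30 against 9.43 ± 4.84 CPM (SD, n = 2). The genotypes did not overlap, although the libraries of one genotype differed by more than the nearest libraries of the other genotype did. The log2 fold change was 1.49 ± 0.52, a fold of 2.81, with an adjusted p of 0.727 in the quasi-likelihood test, 0.262 in DESeq2 and 0.0225 in the edgeR exact test with common dispersion. It ranged from 0.85 (without Rest-/- library 1) to 1.95 (without WT library 1) when single libraries were left out. Slc6a14 lies on the X chromosome, and its change was opposite in sign to the X-linked median given above. No full RE1 match and none with 1 mismatch lay within 20 kb of it.

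Slc6a17 encodes NTT4, an amino acid carrier of synaptic vesicles. Slc6a17 had 12 and 8 counts in the WT libraries, against 24 and 14 in Rest-/-, with a log2 fold change of 1.17 ± 0.47 and an adjusted p of 0.779. The genotypes did not overlap and the change was 0.87 to 1.42 with single libraries left out, at a level of 0.0334 against 0.0759 RPKM (WT 0.0543 with the longest transcript as length). Slc6a16, an orphan carrier, had 33 and 21 counts in the WT libraries, against 15 and 13 in Rest-/-, both lower (log2 fold change -0.66 ± 0.41). Slc6a15, which encodes the branched-chain amino acid carrier B0AT2, had 565 and 386 against 459 and 217 counts, with overlapping genotypes. The carriers of kidney and gut were close to 0 in every library, with 1 count of Slc6a18 in all, 2 and 3 counts of Slc6a19 in WT and 0 in Rest-/-, and 1 count of Slc6a20.

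Among the vesicular carriers, none that loads glutamate separated the genotypes. Slc17a7 (VGLUT1) had 74 and 91 counts in the WT libraries, against 59 and 99 in Rest-/- (2.89 ± 0.712 and 3.38 ± 1.55 CPM), and its log2 fold change was 0.22 ± 0.46. Slc17a6 (VGLUT2), with a full RE1 match 41 bp from its start, had 4 and 1 counts in the WT libraries, against 20 and 0 in Rest-/-. All Rest-/- reads of Slc17a6 thus came from library 1, and no change could be called. Slc17a8 (VGLUT3) had 1 and 0 counts in each genotype.

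The carriers of acetylcholine, monoamines and inhibitory transmitters were low. Slc18a1 (VMAT1, found in endocrine cells) had 47 and 47 counts in the WT libraries, against 88 and 51 in Rest-/-. Its Rest-/- values (3.41 and 2.30 CPM) were above those of WT (1.52 and 1.75 CPM), and the log2 fold change was 0.80 ± 0.37 with an adjusted p of 0.862, or 0.50 without Rest-/- library 1. Slc18a3, the vesicular acetylcholine transporter, had 16 and 25 against 39 and 25 counts and a log2 fold change of 0.87 ± 0.48, or 0.49 without WT library 1 and 1.35 without WT library 2. Chat, which encodes the enzyme that makes acetylcholine and in whose locus Slc18a3 lies, had 0 and 0 against 2 and 1 counts. Slc18a2 (VMAT2, the neuronal monoamine carrier) had 39 and 19 against 33 and 9 counts, and Slc32a1, which loads GABA and glycine, had 12 and 17 against 21 and 14. Both overlapped between genotypes. Of the exon bases of Slc32a1, 24.8% are shared with a transcript of the opposite strand, Gm14205.

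The remaining members of family 17 carry anions and phosphate. Slc17a5, the lysosomal sialic acid carrier sialin, was the one expressed, with 177 and 192 counts in the WT libraries, against 203 and 201 in Rest-/-. Sialin transcripts were higher in both Rest-/- libraries (6.44 ± 1.03 against 8.47 ± 0.861 CPM), with a log2 fold change of 0.39 ± 0.27, or 0.23 without WT library 1 and 0.57 without WT library 2. Slc17a1, Slc17a3 and Slc17a4 had no count in any library and Slc17a2 had 1.

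Of the 4 members with a full RE1 match, Slc6a5 and Slc1a2 thus had at most 4 counts in any library, Slc17a6 had at most 4 outside Rest-/- library 1, where it had 20, and Slc6a9 was expressed. Of all genes with a full match within 1 kb, 135 were in the table, 104 were tested and 71 of these (68.3%) had both Rest-/- libraries above both WT libraries and 6 had both below. Their median log2 fold change was 1.10. Among all genes tested, 16.5% were apart and higher and 15.4% apart and lower, and here too a gene can pass the filter through 1 genotype alone. Neither member of this class, Slc17a6 or Slc6a5, passed the filter. They were among the 31 genes of the class that did not. Within 20 kb, 640 of 848 such genes were tested, 202 (31.6%) were apart and higher in Rest-/- and 72 apart and lower, and the median was 0.11. Promoters of 300 bases were given by RefSeq (GRCm38.p6) for 28 members, where the full motif was present in 1 (Slc17a6) and in 0.0786% of 17816 genes. The median number of CpG sites in the promoter was 18.5 for the 14 members tested and 7.0 for the 14 not tested, against 21.0 and 3.0 for all genes tested and not tested.

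**Figure D3:**
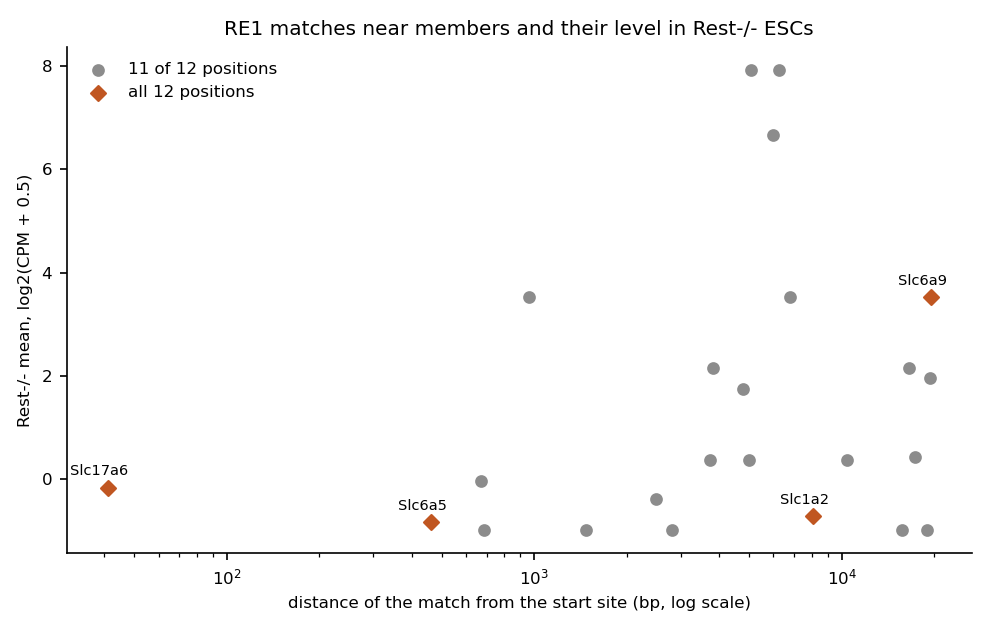
Each point is an RE1 match within 20 kb of 1 of the 37 members shown, with its distance from the nearest transcript start (x axis, log scale) and the Rest-/- mean of that member as log2(CPM + 0.5) (y axis). Diamonds match all 12 positions and circles 11. The diamonds of Slc17a6, Slc6a5 and Slc1a2 lie at the bottom of the plot and that of Slc6a9 higher, at 19500 bp.

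The enzymes and transporters that work with these carriers were read from the same fit. Of 30 genes for making and breaking down transmitters, 25 were tested and none passed, with a median log2 fold change of 0.03. The Rest-/- libraries were apart from WT and higher for 4 and lower for 5 (16.5% and 15.4% of all genes tested were so). Among those above were Abat, which breaks down GABA (85 and 136 against 132 and 211 counts), Ddc, which makes dopamine and serotonin (339 and 196 against 519 and 262), and Glul, glutamine synthetase (7387 and 4764 against 7641 and 6242). Among those below were Maoa, the monoamine oxidase (3707 and 2822 against 2171 and 1680 counts), Gamt, which makes creatine (36 and 31 against 20 and 23), and Pts (398 and 315 against 285 and 215), needed for the cofactor of the monoamine hydroxylases.

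Of 39 other amino acid and choline transporters, 29 were tested and none passed the quasi-likelihood test. Slc7a14, related to the cationic amino acid carriers, had 6 and 19 counts in the WT libraries, against 87 and 95 in Rest-/-. Its genotypes were far apart, with a log2 fold change of 3.09 ± 0.67 that had an adjusted p of 0.434 in the quasi-likelihood test and 0.00188 in the edgeR exact test with tag-wise dispersion, which called 206 genes (1.33%) higher in Rest-/-. Slc7a2 (80 and 58 against 138 and 116) and Slc7a7 (4122 and 2969 against 5049 and 3493) were also higher in both Rest-/- libraries. Slc7a9 (75 and 45 against 31 and 7), the glutamine carrier Slc38a3 (221 and 292 against 91 and 114) and Slc7a8 (212 and 163 against 116 and 91) were lower in both. None of these 5 had an adjusted p under 0.05 in either test.

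The vacuolar ATPase list held 24 genes, of which 19 were tested and none passed the quasi-likelihood test. Its proton channel gene Atp6v0c had 407 and 307 counts in the WT libraries, against 862 and 727 in Rest-/-. The genotypes were well apart, with a log2 fold change of 1.43 ± 0.19 and adjusted p of 0.167 in the quasi-likelihood test and 0.000202 in the edgeR exact test with tag-wise dispersion. The other subunit genes did not share this size of change, and the median of the list was -0.08. Atp6v0a1 (log2 fold change 0.54) and Atp6v0e2 (0.50) were higher in both Rest-/- libraries, and Atp6ap1 (-0.50), Atp6v0d1 (-0.34) and Atp6v0a2 (-0.25) were lower in both.

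**Figure D4:**
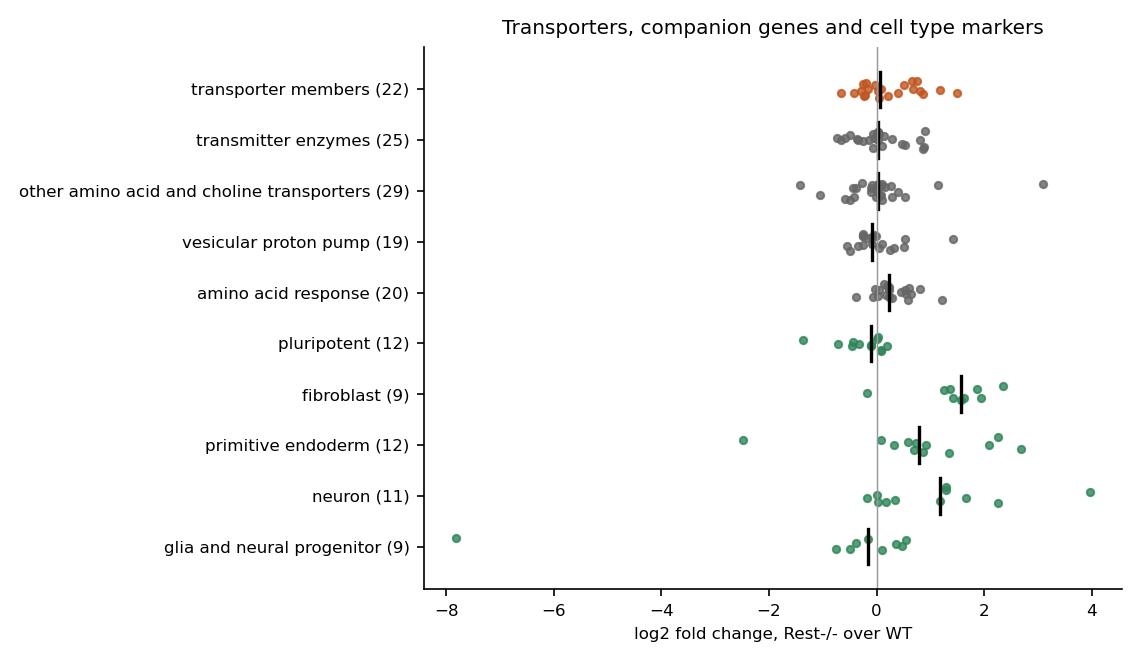
Each point is a tested gene, with its log2 fold change (Rest-/- over WT) on the x axis and its list on the y axis, the number tested in brackets and a bar at the median. The transporters have a median of 0.07, and neuronal and fibroblast markers have medians of 1.18 and 1.58.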

How the data were processed

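Total RNA from 2 WT and 2 Rest-/- ESC libraries was made into TruSeq libraries and sequenced by Illumina. The authors mapped the reads with Subread and counted them per gene with featureCounts (mm9 is the build in the submitters' processing notes), and deposited whole-number counts per Entrez gene without normalization. Versions, annotation and strand setting are not given in the sources used here. The table held 26301 genes, and 368 rows without identifier or values were left out. Members and lists were chosen with earlier results of these data known.

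Genes were kept by edgeR's filterByExpr (15444 genes, 22 members), scaled by TMM and tested with the edgeR (4.0.16) quasi-likelihood test, genotype as the only term, with Benjamini-Hochberg adjustment over all genes. Fold changes use a prior count of 0.125. CPM are TMM-scaled, and RPKM divide CPM by the union of exons in GENCODE M1. Means are given with SD over 2 libraries. Every member was named except 1, which is not reported here but stays in counts and medians over the members. From each companion list, genes with an adjusted p under 0.05 in the quasi-likelihood or tag-wise exact test were named, and up to 3 in each direction with a mean of at least 1 CPM, genotypes apart and the largest change. P-values measure only the spread between these libraries. The fits were tested on simulated data with log2 changes of 2, larger than that of any member tested, and smaller changes were not simulated. Alternatives were scaling by RLE, by upper quartile or by library size alone, no filter, at least 10 counts in every library, a prior count of 2, exact tests, DESeq2 (1.42.0), a replicate block, each library left out, other distances for the motif and the longest transcript as length. The RE1 letters are the informative positions of the study's motif. Start sites came from GENCODE M1 on NCBIM37 (mm9), where Slc6a16 and Slc18a3 were not matched, and promoters from RefSeq. RefSeq (GRCm38.p6) matched 24191 identifiers.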

Additional observations from a re-analysis of the deposited data

How the results depend on the processing

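No member passed under RLE, upper quartile or library size scaling, either filter, a prior count of 2, the tag-wise exact test, DESeq2 or any library left out. The count of genes called moved from 9 to 53 with no filter, 3 with at least 10 counts in every library, 277 (tag-wise exact test), 344 (common dispersion) and 238 (DESeq2). The common dispersion called 1 member. The 2 exact tests and DESeq2 each called 2 companion genes. Without single libraries, 60 to 113 genes and 0 to 1 companion genes were called, 1 without WT replicate 2 (Slc7a14), and the members' median log2 fold change was 0.197 to 0.311. Leaving out single libraries changed the sign of 10 of the 21 tested members reported and the other settings of none. The range was -1.27 to 0.37 for Slc18a2, -0.35 to 0.63 for Slc17a7, -0.62 to 0.11 for Slc6a8, -0.86 to 0.81 for Slc1a6, -0.77 to 1.84 for Slc6a7, -0.74 to 0.46 for Slc6a9, -0.018 to 0.19 for Slc1a1, -0.74 to 0.28 for Slc6a2, -0.73 to 0.12 for Slc6a15 and -0.20 to 1.28 for Slc1a4. The cause was not tested. Members with a full RE1 match numbered 4 within 20 kb, 2 within 5 kb and 2 within 1 kb, and 17 with 1 mismatch.

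With a replicate block, 2621 of the 15444 genes tested, 27 of 93 companion genes and 5 of 22 members were called. Of these members, Slc1a3, Slc1a4 and Slc6a14 were higher and Slc6a6 and Slc1a5 lower in Rest-/-. The median of all members tested was 0.189. Same-numbered libraries deviated together (Pearson r = 0.807 across all genes tested and 0.728 across members, which are not independent), but no source used here says what a number shares. Having 2 libraries per genotype and low counts limits the precision for most members.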

Other observations

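RefSeq gives a symbol of these families to 3 genes that the table lists under another name. The gene listed as 1700019H03Rik, now Slc17a9, which encodes the vesicular nucleotide transporter, had 1235 and 692 counts in the WT libraries, against 729 and 448 in Rest-/-. Its genotypes overlapped and its log2 fold change was -0.44 ± 0.31, at 32.9 ± 9.94 against 24.2 ± 5.65 CPM (SD, n = 2). Xtrp3s1 (Slc6a20a) had 1 and 3 counts in the WT libraries, against 3 and 0 in Rest-/-, and 1700039E15Rik (Slc6a21) had 1 count in all.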
